A study of Homo sapiens with 5 samples.

Results

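The FAT family comprises 4 very large atypical cadherins, FAT1, FAT2, FAT3 and FAT4, and all 4 were measured in TE7 cells, a human esophageal carcinoma line, with and without a construct for another cadherin, CDH26. The members were taken by gene symbol in the array's annotation, which gave each of them 1 probe set, out of 14812 genes named by 15835 probe sets. They were chosen with their differences between CDH26 and control clones in view, so these differences are a description and carry no test. The study held 5 arrays, 3 of clones transduced with pMIRNA1-puro-CDH26 and 2 of clones transduced with pMIRNA1-puro-control. Each clone was derived from a single cell and was hybridised once to a Gene 2.0 ST array. All clones, controls included, were grown to confluency and then kept for 24 h in RPMI with 1.8 mM calcium. Clones of 1 construct differ by clonal origin as well as by chance. Every p-value below rests on the spread of the deposited values between these clones. Only 6857 of the 14812 genes were free of ties between arrays, with a tie being equality within 1e-05. Ties within a group narrow that spread, so SEs and p-values of such genes may not reflect variation between clones. The cause of the ties was not tested. Untransduced TE7 cells were not analysed here.

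FAT cadherins span the membrane once and carry a long extracellular chain of cadherin repeats. In Drosophila, Fat on one cell binds Dachsous on its neighbour, the Golgi kinase Four-jointed adjusts that binding by phosphorylating cadherin repeats of both, and the pair controls growth through the Hippo kinases and the orientation of cells in the tissue plane. FAT4, the closest human relative of Drosophila Fat, binds the Dachsous relative DCHS1. FAT1 is a frequent target of inactivating mutations in squamous carcinomas and recruits Ena/VASP actin regulators, FAT2 is found in stratified squamous epithelium, and FAT3 is best known from neurons of the mouse.

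All values are deposited logarithms, taken as log2, with the mean of the controls as 0. Values of single clones are given in the order of CDH26 clones 1, 2 and 3 and control clones 1 and 2. Such centred values show differences between clones and keep no expression level, so the levels of the FAT genes cannot be compared with one another, and epithelial identity cannot be checked from marker levels. The clones were not equally alike. The clone furthest from all others by 0.5 log2 units or more was CDH26 clone 1, 2 or 3 in 72, 36 and 11 genes, control clone 1 in 116 genes and control clone 2 in 468. Each FAT result is accordingly also given without either control clone. CDH26 itself, the transduced gene, was at 2.87, 3.01 and 2.63 in the CDH26 clones, against 0.01 and −0.01 in the controls.

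Start regions of FAT1 and FAT2 were held in the RefSeq promoter table for GRCh38.p14, together with that of FJX1, the human Four-jointed kinase, whose values stand beside the family below. They are shown, 250 bases before to 50 after the start, because the 2 members differ in the base composition of these regions; CG dinucleotides are in capitals.
FAT1 chr4:186726647-186726946 (minus strand): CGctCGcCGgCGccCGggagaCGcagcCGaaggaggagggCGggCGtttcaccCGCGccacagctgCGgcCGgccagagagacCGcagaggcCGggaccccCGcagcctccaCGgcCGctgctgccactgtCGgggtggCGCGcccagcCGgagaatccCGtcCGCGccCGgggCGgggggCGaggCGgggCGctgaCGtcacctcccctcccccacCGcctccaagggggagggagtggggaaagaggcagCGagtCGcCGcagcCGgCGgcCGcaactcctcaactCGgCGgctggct
FAT2 chr5:151591282-151591581 (minus strand): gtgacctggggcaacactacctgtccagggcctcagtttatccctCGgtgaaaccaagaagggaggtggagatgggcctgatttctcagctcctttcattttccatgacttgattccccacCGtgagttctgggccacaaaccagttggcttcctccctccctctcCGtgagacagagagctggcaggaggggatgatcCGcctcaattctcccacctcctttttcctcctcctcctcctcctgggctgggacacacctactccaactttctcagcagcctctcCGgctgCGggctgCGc
FJX1 chr11:35618210-35618509 (plus strand): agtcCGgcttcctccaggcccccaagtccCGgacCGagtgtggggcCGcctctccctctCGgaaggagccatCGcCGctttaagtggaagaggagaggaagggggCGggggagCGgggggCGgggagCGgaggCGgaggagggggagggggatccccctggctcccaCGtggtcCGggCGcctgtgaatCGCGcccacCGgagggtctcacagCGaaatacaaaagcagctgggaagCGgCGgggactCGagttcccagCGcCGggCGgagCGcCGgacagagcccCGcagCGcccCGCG
The FAT1 window held 40 CG dinucleotides and was 77.3% G or C, and the FAT2 window held 7 and was 58.0% G or C. A second FAT1 start in the table held 41. The FJX1 window held 31 and was 72.3% G or C, and the median of the 35116 promoters in the table was 14 CG dinucleotides and 58.7% G or C. More CG dinucleotides than in 92.4% of promoters were thus found in the printed FAT1 window, and more than in 36.8% in that of FAT2. The TEAD core motif GGAATG, searched on both strands, was in none of these windows and in 14.0% of all promoters of that length. FAT3 and FAT4 had no entry in the table.

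FAT4 showed the family's largest difference. It was at 1.32, 1.70 and 1.18 in the CDH26 clones, against −0.18 and 0.18 in the controls. The groups did not overlap, and the nearest pair of clones from the 2 groups was 1.00 log2 units apart. The means were 1.40 ± 0.27 (SD, n = 3) with CDH26 and 0 ± 0.25 (SD, n = 2) in controls, a difference of 1.40 ± 0.21 (SE) or 2.64-fold. In such bulk RNA a larger share of FAT4-expressing cells and more RNA per cell cannot be told apart. Only 29 named genes had a larger positive difference, FAT4 being at position 30 of 14812, and 0.506% of all genes were at least 2-fold higher. Against control clone 2 alone the FAT4 difference was 1.22 and against control clone 1 alone 1.58, so it was of similar size against either control alone.

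FAT2 had the second positive difference. It was at 0.58, 0.73 and 0.37 in the CDH26 clones, against 0.39 and −0.39 in the controls. The groups overlapped, since control clone 1 lay above CDH26 clone 3 by 0.03. The difference in means was 0.56 ± 0.28 (SE), with an SD of 0.18 (n = 3) with CDH26 and 0.56 (n = 2) in controls. The 2 control clones were 0.79 log2 units apart in FAT2, a gap exceeded by 2.21% of genes. Which control was used decided the size: the difference was 0.95 against control clone 2 alone and 0.16 against control clone 1 alone.

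FAT3 differed in the opposite direction. It was at −0.51, −0.58 and −0.48 in the CDH26 clones, against 0.20 and −0.20 in the controls. The groups did not overlap, with every CDH26 clone lower by at least 0.29. The difference was −0.52 ± 0.13 (SE), or 1.44-fold lower, with SDs of 0.05 (n = 3) with CDH26 and 0.28 (n = 2) in controls. It was −0.33 against control clone 2 alone and −0.72 against control clone 1 alone, and 234 genes had a more negative difference than FAT3 with all clones. The CDH26 clones were close together, within 0.10 log2 units, while 59.2% of genes had a wider range among them.

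FAT1 lay within the spread of the control clones. It was at −0.15, −0.12 and −0.12 in the CDH26 clones, against 0.17 and −0.17 in the controls. CDH26 clones 2 and 3 held the same deposited value, and the CDH26 clones spanned 0.03 log2 units, against 0.33 between the controls. The difference was −0.13 ± 0.11 (SE), and its sign depended on the control: 0.03 against control clone 2 alone and −0.30 against control clone 1 alone. In absolute size 31.2% of genes differed by more.

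**Figure D1:**
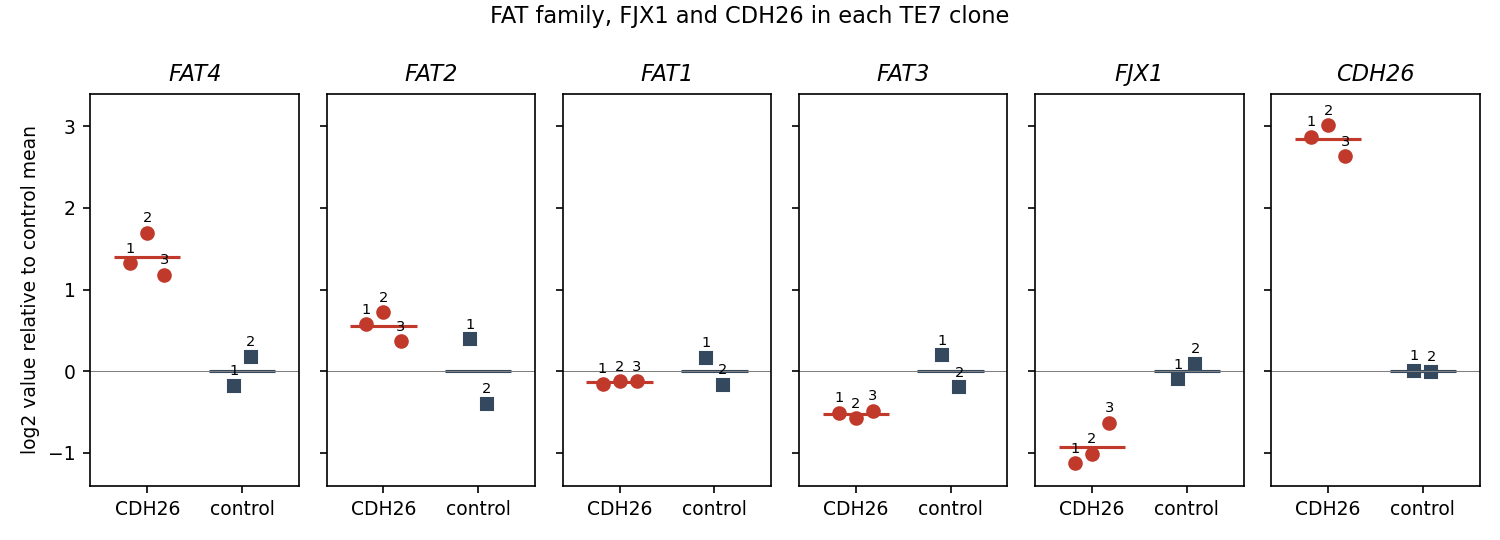
Deposited log2 values relative to the control mean (vertical axis) of the FAT genes, FJX1 and CDH26 in each clone; circles are CDH26 clones, squares control clones, numbers give the clone, and horizontal lines are group means. FAT4 and CDH26 lie above both controls in all CDH26 clones, FAT3 and FJX1 below, and FAT1 and FAT2 overlap the controls.

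**Figure D2:**
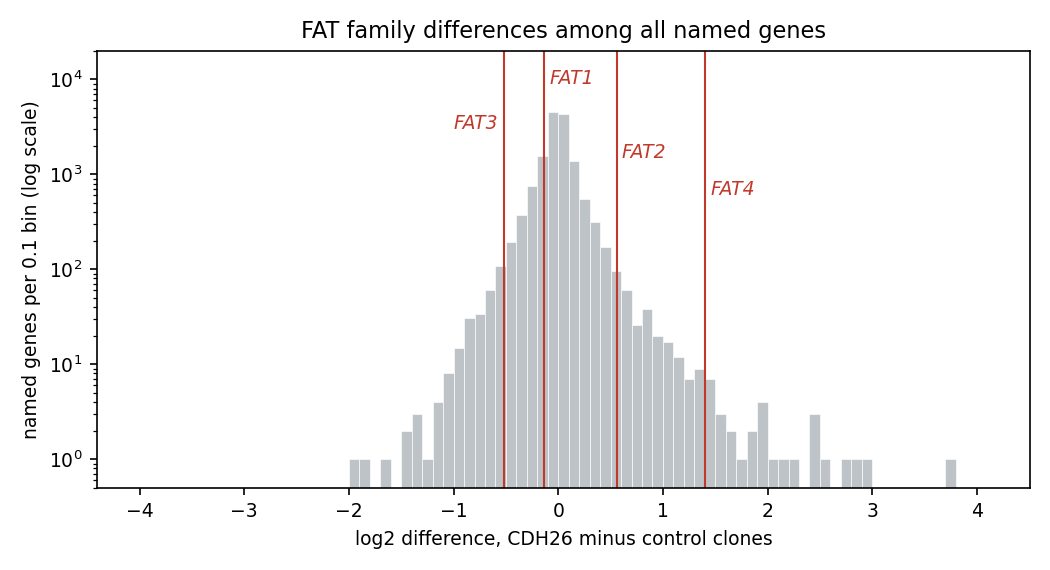
Histogram of the log2 difference (CDH26 minus control clones) over the 14812 named genes, with the number of genes per bin on a log axis; vertical lines mark the FAT genes. FAT4, at 1.40, sits in the upper tail and FAT1, at −0.13, near the centre.

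The members thus did not share a direction. Of the 4, 1 lay wholly above and 1 wholly below the controls, while over all genes 8.98% lay wholly above and 9.93% wholly below; since the members were chosen on this contrast, nothing is read from their count. FAT4 and FAT2 had the order clone 2, clone 1, clone 3 from high to low among the CDH26 clones, as did CDH26 itself, and FAT3 had the reverse order. Among the 10050 genes with 3 different values in these clones, 14.4% had the first order and 12.6% the reverse, so either order was common.

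**Figure D3:**
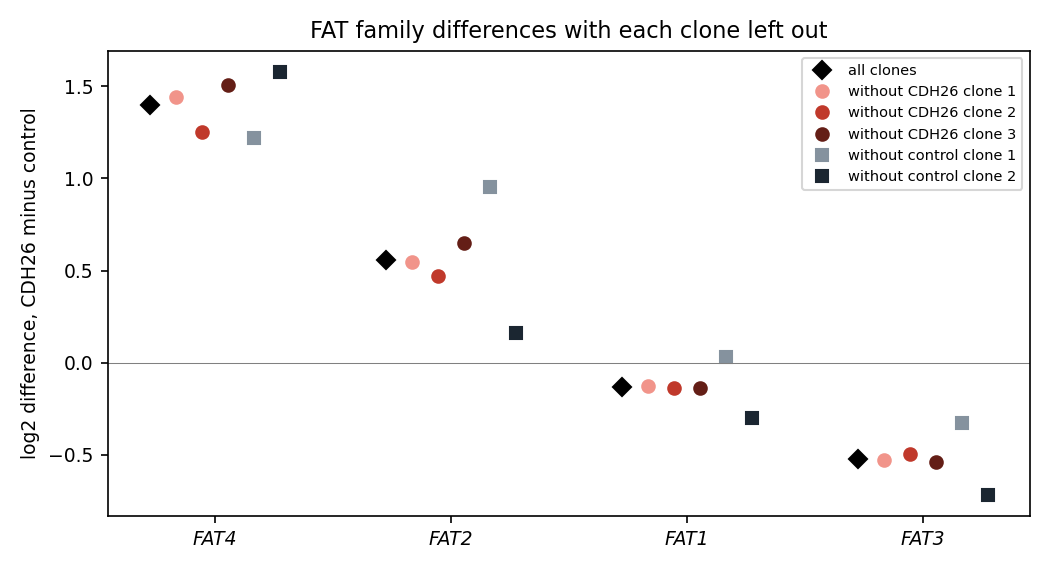
Log2 difference (CDH26 minus control clones, vertical axis) of each FAT gene with all clones (diamond) and with each clone left out in turn (circles for CDH26 clones, squares for control clones). Leaving out a control moves FAT2 between 0.16 and 0.95 and turns the sign of FAT1, while FAT4 stays between 1.22 and 1.58.

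FAT1 and FAT4 both lie on chromosome 4, FAT2 on chromosome 5 and FAT3 on chromosome 11 in the RefSeq annotation of GRCh38.p14, which was used here for gene order. The 5 nearest measured genes on each side were compared with each member, a rule set after the values had been seen. The 10 neighbours of FAT4 had a median difference of 0.06, from −0.10 to 0.42. In 0 of them did every CDH26 clone lie above both controls, and in 0 below, beside 8.98% and 9.93% of all genes. The highest was FGF2, a fibroblast growth factor, followed by ANKRD50 at 0.42, the nearest measured gene on 1 side of FAT4. Around FAT3 the median was −0.0011, from −0.35 to 0.10, again with 0 of 10 separated. The neighbours of FAT2 had a median of −0.04, from −0.12 to 0.45, with 1 of 10 wholly above the controls and 1 wholly below. GM2A, a lysosomal ganglioside activator and the nearest measured gene on 1 side, was the highest, with all CDH26 clones above the controls. Near FAT1 the median was 0.05, from −0.08 to 1.00, with 2 of 10 wholly above the controls and 1 wholly below. The highest value there was that of TLR3, a receptor for double-stranded RNA. These neighbours are given as a description, since the FAT genes were chosen on the same differences.

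**Figure D4:**
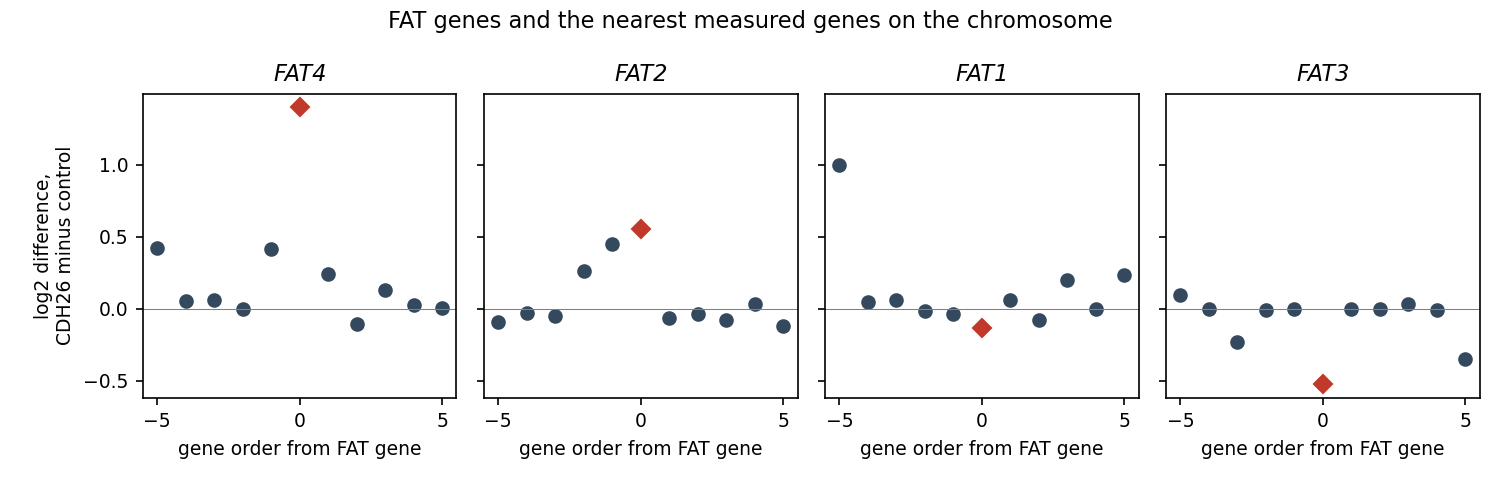
Log2 difference (CDH26 minus control clones, vertical axis) of each FAT gene (diamond, position 0) and of the 5 nearest measured genes on either side (circles), by gene order on the chromosome. Neighbours of FAT4 run from −0.10 to 0.42 and those of FAT3 from −0.35 to 0.10; the FAT genes were chosen on these differences, so nothing is read from their place among the neighbours.

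Genes with the most similar values over the 5 arrays were found by the root mean square difference, for the 3 members that spanned at least 0.5 log2 units. FAT2 was matched most closely by LRP1, an endocytic receptor, at a distance of 0.00795; its values were 0.58, 0.73 and 0.37 in the CDH26 clones, against 0.38 and −0.38 in the controls. MRPL24, EFNB1, S100A6 and VAMP4 followed at 0.055 to 0.061, and 134 genes lay within 0.2 of FAT2. FAT3 had 170 genes within 0.2, the nearest being LINC01963, TTN, SRCAP, ZNF704 and EPS8 at 0.096 to 0.11. FAT4 had 0 genes within 0.2; MAB21L3, TXNIP, TRANK1, PROM2 and RADX were nearest at 0.24 to 0.29. TXNIP, the thioredoxin-interacting protein, was at 1.76, 2.06 and 1.15 in the CDH26 clones, against −0.28 and 0.28 in the controls. The arrays behind these distances are the same 5 that gave the FAT values, and large departures are rarer than small ones.

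The partners of FAT proteins were then examined in limma fits over all 14812 genes, in which 0% of genes passed an adjusted p of 0.05 and 7.51% (1113 genes) an unadjusted one, 3.51% higher and 4% lower with CDH26. Of 169 symbols in 10 lists, CDH26 apart, 110 were measured, and 0 passed the adjusted threshold. At the unadjusted one 13 passed, 4 higher and 9 lower, or 11.8%. Without control clone 1, 6 passed the adjusted threshold in limma, with the lone control assumed to vary like the CDH26 clones, and with any other clone left out 0 did. In that fit 1.26% of all genes passed. The markers of 2 cell states are among these lists, and some genes stand in more than 1 list.

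FJX1 lay opposite to FAT4. This kinase gene was at −1.12, −1.01 and −0.63 in the CDH26 clones, against −0.09 and 0.09 in the controls. All CDH26 clones were below both controls, a difference of −0.92 ± 0.18 (SE) or 1.89-fold lower (limma, unadjusted p = 0.0078, adjusted p = 0.626). Against control clone 2 alone it was −1.01 and against control clone 1 alone −0.83. DCHS1, the ligand of FAT4, was at 0.03, 0.00 and −0.01 in the CDH26 clones, against 0.03 and −0.03 in the controls. Its difference was 0.01 ± 0.03 (limma, adjusted p = 0.939), and its 3 probe sets ranged from −0.02 to 0.04, one being listed at 0 on every array. DCHS2 was not among the named genes.

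Other atypical cadherins mostly stayed near the control mean. Of 15 listed 12 were measured, CDH26 itself and the receptor gene RET among them, with a median difference of 0.02 beside 0 over all genes. CDH26 was the 1 that passed the unadjusted threshold (limma, adjusted p = 0.25). Wholly above the controls were 3 of the 12, CDH26 included, and wholly below 0, beside 8.98% and 9.93% of all genes. Apart from it the list ran up to 0.10, in CLSTN3, a calsyntenin of the synapse, at 0.07, 0.16 and 0.07 in the CDH26 clones, against 0.01 and −0.01 in the controls (limma, adjusted p = 0.626).

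Cytoplasmic partners included actin regulators that bind FAT1. Of 28 listed 17 were measured, with a median of −0.04, or −0.09 without control clone 2. Of the 17, 1 lay wholly above and 1 wholly below the controls, beside 8.98% and 9.93% of all genes. ENAH, an Ena/VASP protein that promotes actin filament growth, was at −0.38, −0.35 and −0.40 in the CDH26 clones, against −0.20 and 0.20 in the controls. Its difference was −0.38 ± 0.13 (SE; limma, unadjusted p = 0.0473, adjusted p = 0.626), and −0.18 without control clone 2. Without control clone 1 it was −0.57 and passed the threshold (limma, adjusted p = 0.0476). Its relative EVL differed by 0.14 ± 0.06 (limma, adjusted p = 0.626), and by 0.05 without control clone 2.

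The Hippo kinase cascade restrains growth. Its list also held regulators of the cascade, and the kinases LATS1 and LATS2 were not among its measured genes. STK3, STK4 and SAV1, named after their values were seen, differed by −0.04, −0.07 and −0.03, each with overlapping clones. Of the 20 measured of 23 listed, 17 had a lower mean with CDH26, where 49.5% of all genes did; the median was −0.12. The list's median value was −0.16, −0.08 and −0.08 in the CDH26 clones, against −0.09 and 0.09 in the controls, so control clone 1 lay below CDH26 clones 2 and 3. In 6 the clones with CDH26 were all below both controls and in 0 all above, beside 9.93% and 8.98% of all genes. Counts against 1 control alone are left out, since any gene can separate more easily from 1 control than from 2. Of the 20, 3 passed the unadjusted threshold, all lower, as did 4% of all genes in that direction. WTIP, a LIM protein of the Ajuba group, whose Drosophila relative restrains the Hippo pathway kinase Warts, was at −0.81, −0.91 and −0.49 in the CDH26 clones, against −0.24 and 0.24 in the controls. WTIP differed by −0.74 ± 0.21 (SE) and WWC2, a relative of the Hippo activator Kibra, by −0.47 ± 0.15 (limma, adjusted p = 0.626 for each). Control clone 1 lay on the same side as the CDH26 clones in both: without control clone 2 they were −0.50 and −0.32, and the median of the list was −0.06. Without control clone 1 it was −0.20.

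The cascade holds back YAP and TAZ, which act through the TEAD factors. Their list also held VGLL1, VGLL3 and VGLL4, Vestigial-like cofactors that bind TEAD, and 9 of its 9 genes were measured. The median difference was −0.19, with 0 past the unadjusted threshold. The list's median value was −0.14, −0.24 and −0.12 in the CDH26 clones, against −0.21 and 0.21 in the controls, so control clone 1 lay below CDH26 clones 1 and 3. In TEAD1 and WWTR1 the CDH26 clones lay wholly below the controls and in YAP1 wholly above, 2 and 1 of 9 beside 9.93% and 8.98% of all genes; 3 had a higher mean with CDH26 and 6 a lower one. YAP1 was at 0.03, 0.04 and 0.06 in the CDH26 clones, against 0.02 and −0.02 in the controls (limma, adjusted p = 0.626). TEAD2 differed by 0.37, VGLL1 by −0.79 and VGLL3 by −0.88, each with overlapping clones. VGLL1 was at −0.62, −1.13 and −0.62 in the CDH26 clones, against −0.62 and 0.62 in the controls. VGLL3 was at −0.68, −0.68 and −1.28, against −0.68 and 0.68, and TEAD2 at 0.35, 0.23 and 0.51, against −0.23 and 0.23. In both VGLL genes only 1 CDH26 clone thus lay below control clone 1. YAP1, TEAD2 and the VGLL genes are named after their values were seen. TEAD1, a DNA-binding partner of YAP, was at −0.72, −0.77 and −0.34 in the CDH26 clones, against −0.31 and 0.31 in the controls. It differed by −0.61 ± 0.26 (SE), and WWTR1, which encodes TAZ, by −0.19 ± 0.08 (limma, adjusted p = 0.626 for each). Without control clone 2 they were −0.30 and −0.09, and the median of the list was −0.09. Of the targets of YAP and TAZ 14 of 24 were measured, with a median of −0.35. Of these 7 lay wholly below the controls and 0 above, beside 9.93% and 8.98% of all genes. The mean was lower with CDH26 in 12 and higher in 2, up to 0.65 in IGFBP3. The list's median value was −0.43, −0.41 and −0.22 in the CDH26 clones, against −0.16 and 0.16 in the controls. Some of the 7 lay close to control clone 1: ANKRD1 was at −1.69, −1.82 and −1.89, against −1.53 and 1.53, and CCN2 at −0.19, −0.21 and −0.21, against −0.17 and 0.17. Besides FJX1, the focal adhesion tensin TNS3 had one of the smallest p-values, at −0.61, −0.59 and −0.22 in the CDH26 clones, against 0.04 and −0.04 in the controls (limma, adjusted p = 0.626). The median of the targets was −0.17 against control clone 1 alone and −0.44 against control clone 2 alone.

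Planar cell polarity genes, the other branch of Fat signalling in Drosophila, had 12 of 21 members measured, and a median of 0.04, or −0.0083 without control clone 2. The CDH26 clones lay wholly above the controls in 4 of these and wholly below in 2, beside 8.98% and 9.93% of all genes. ANKRD6, the cytoplasmic protein Diversin, was at 0.10, 0.12 and 0.10 in the CDH26 clones, against 0.02 and −0.02 in the controls, a difference of 0.11 ± 0.02 (SE; limma, unadjusted p = 0.0125, adjusted p = 0.626). PRICKLE4 differed by 0.41 ± 0.16 (limma, adjusted p = 0.626). The CELSR and VANGL genes were not among the named genes.

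**Figure D5:**
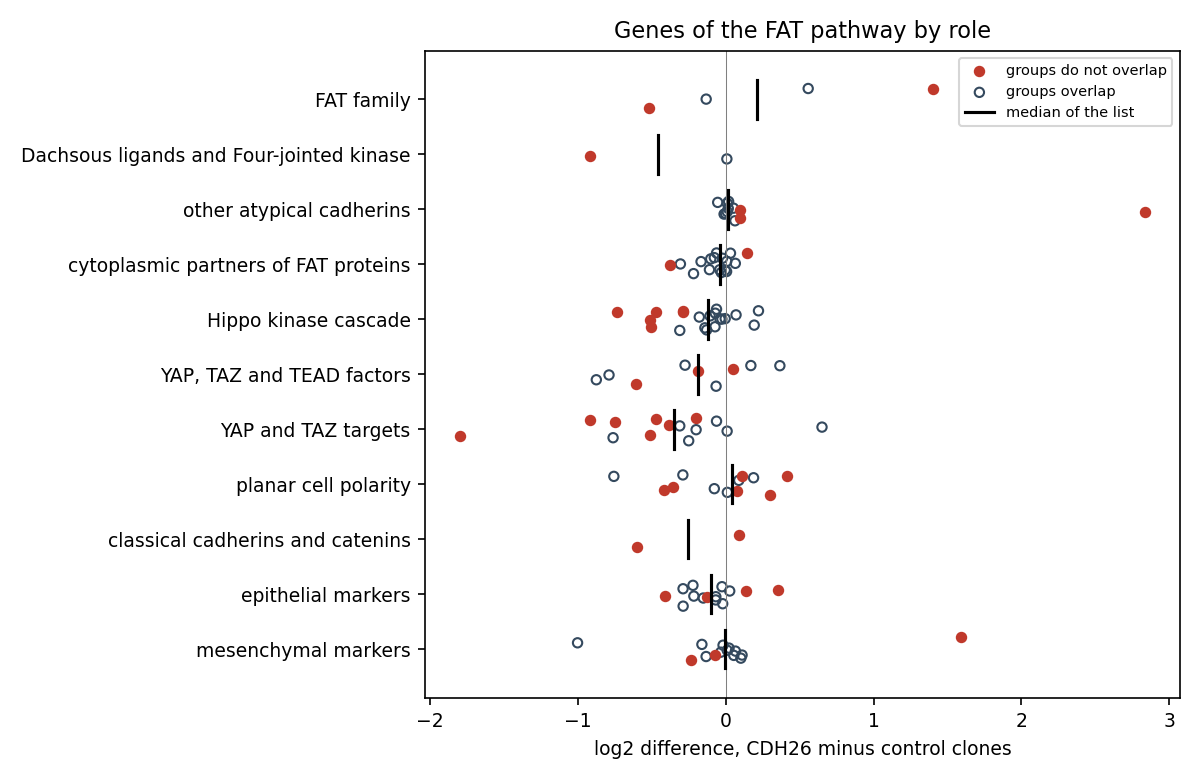
Log2 difference (CDH26 minus control clones, horizontal axis) of each measured gene, by role; filled points are genes in which the CDH26 and control clones do not overlap, open points genes in which they do, and vertical bars are list medians. The list with YAP, TAZ and TEAD includes the VGLL cofactors. Targets of YAP and TAZ have a median of −0.35 and the Hippo cascade one of −0.12, while FAT4 and CDH26 lie to the right.

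Classical cadherins and catenins were hardly covered, with 2 of 14 named. Vinculin (VCL), which links catenins to actin, differed by −0.60 ± 0.20 (SE) and by −0.33 without control clone 2, and plakoglobin (JUP) by 0.09 ± 0.04 (limma, adjusted p = 0.626 for each). Markers of epithelial and mesenchymal state were read beside FAT4 and FAT2. The 14 epithelial markers measured of 20 had a median of −0.10, or −0.04 without control clone 2. Wholly above the controls were 2 of the 14 and wholly below 2, beside 8.98% and 9.93% of all genes. In 11 the mean was lower with CDH26, beside 49.5% of all genes. KRT19, a keratin of simple epithelia, differed by 0.35 ± 0.11 and the epithelial factor GRHL2 by −0.13 ± 0.04 (limma, adjusted p = 0.626 for each). The other simple keratins of the list, named after their values were seen, had differences of −0.41 in KRT7, −0.22 in KRT8 and −0.29 in KRT18 (limma, adjusted p = 0.626 for KRT7, KRT8 and KRT18). The clones overlapped in KRT8 and KRT18, and in KRT7 CDH26 clone 3 was at −0.13, against −0.12 in control clone 1. KRT19 differed by 0.19 from control clone 1 alone, and by 0.51 from control clone 2 alone, with a limma adjusted p of 0.0446. The 14 mesenchymal markers measured of 26 had a median of −0.0048, 1 wholly above and 2 wholly below, beside 8.98% and 9.93% of all genes. LUM, the matrix proteoglycan lumican, was separated in the same direction as FAT4, at 2.01, 1.91 and 0.86 in the CDH26 clones, against −0.09 and 0.09 in the controls (limma, unadjusted p = 0.0204, adjusted p = 0.626). TAGLN, an actin-binding protein of smooth muscle, was at −1.20, −1.26 and −0.55, against −0.69 and 0.69 in the controls (limma, adjusted p = 0.626), and differed by −0.31 without control clone 2 and by −1.69 without control clone 1. The part of cell state in the FAT values was not tested.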

How the data were processed

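RNA of 5 TE7 clones, 3 with a CDH26 and 2 with a control construct, was measured on 1 array per clone; groups were taken from the labels. Per the submitters' processing notes the software was Affymetrix Expression Console; summarisation, background correction and genome build were not given in those sources. The deposited values are logarithms, taken as log2, which the authors had centred on the control mean: the 2 control values of a probe set sum to 0 within 1e-06, so no brightness filter could be applied. Precision is limited by the number of arrays.

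Of 44607 probe sets, 15835 had the name of 1 gene, 0 of several and 28772 of none; probe sets of a gene were averaged. All 14812 named genes were fitted with limma 3.58.1 in R 4.3.3 (lmFit, eBayes, group as the only term, two-sided, Benjamini-Hochberg over all genes, threshold 0.05), checked first on simulated data. SEs are limma's. An exact permutation of 3 against 2 clones cannot go below 0.1 and was not used. Groups were called separate where all values of one lay beyond the other by more than 1e-05.

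The members and lists were chosen with earlier results of these data known. Named were all FAT genes, CDH26, the Dachsous and Four-jointed genes, the 2 members of each other list with the smallest unadjusted p, and the 5 genes nearest in pattern to each FAT gene that spanned 0.5 log2 units, among the 6857 genes without ties between arrays. Alternatives were median centring, quantile normalization, a replicate block, array weights, robust variance, natural logarithms, untied genes, all probe sets, an adjusted threshold of 0.1 and each clone left out. Figures were drawn with matplotlib 3.10.9.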

Additional observations from a re-analysis of the deposited data

How the results depend on the processing

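FAT4 stayed between 1.22 and 1.58 with each clone left out and was 2.02 if the deposited values are natural logarithms. FAT3 ranged from −0.72 to −0.33 over the clones left out and was −0.75 as natural logarithms. FAT2 ranged from 0.16 to 0.95, and FAT1 from −0.30 to 0.033, its sign turning without control clone 1. DCHS1 ranged from −0.019 to 0.033, with −0.0026 without CDH26 clone 1 and −0.019 without control clone 2. The number of genes past the adjusted threshold in limma was 1 after quantile normalization (SLFN11) and 1 among genes without ties (CDH26), and ranged from 0 to 186 over the clones left out. The 186, 86 higher and 100 lower, came without control clone 1, as did the 6 pathway genes past the threshold, against 0 with any other clone left out: ANKRD1, CCN2, ENAH and ROR1 lower and KRT19 and MOB1B higher. In each of these control clone 1 lay on the same side of the control mean as all CDH26 clones. MOB1B was at 0.19, 0.20 and 0.19 in CDH26 clones 1, 2 and 3. Control clones 1 and 2 were at 0.19 and −0.19. CDH26 clones 1 and 3 and control clone 1 held the same deposited MOB1B value. CDH26 clones 1 and 2 held the same one in ROR1. As deposited, 22 of the 110 pathway genes lay wholly below the controls and 12 wholly above, beside 9.93% and 8.98% of all genes. After quantile normalization the counts were 10 and 6. Both counts were higher than as deposited with any 1 clone left out, a setting in which any gene can separate more easily. No share over all genes is given for these alternatives, so nothing is read from their counts. With the clone number as a replicate block FAT4 was 1.51, FAT2 0.65, FAT3 −0.54 and FAT1 −0.14, and 0 genes passed. No label pairs the clones by number. Deviations from the group means correlated at −0.198 for clone 1 and −0.205 for clone 2 over genes. The deviations of the 2 controls mirror each other, so these correlations are not independent and cannot decide whether clones are paired. Each FAT gene has 1 probe set, so no probe set could be taken alone. The causes of these shifts were not tested.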
